A study of Sus scrofa with 16 samples.

Results

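The mast cell markers KIT, MS4A2, FCER1A, CMA1, CPA3 and HDC were examined in the left ventricle of pigs after a myocardial infarction. The members were all probe sets whose only gene symbol in the platform annotation was 1 of these 6, and 2 of the 6 genes were found in this way, KIT with 1 probe set and MS4A2 with 2. That gave 3 of the 23999 probe sets tested, and 2 of the 6765 genes with a symbol of their own. FCER1A, CMA1, CPA3 and HDC had no such probe set and were not analysed here. All 3 probe sets lay above background in every animal.

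The infarcted group (MI) and the sham-operated group (Sham) held 8 Yorkshire x Landrace swine each, 4 labelled female and 4 labelled male in each group, and the males were neutered. The animals were 2 to 3 months old, and tissue was taken 3 weeks after the operation. Each animal gave 1 Affymetrix porcine array, so the spread within a group holds variation between animals and between arrays, which cannot be told apart. It is called the spread between animals below. The part of the ventricle taken, and its distance from the infarct, are not given in the labels. Values are log2 signals. MI 1 to MI 8 and Sham 1 to Sham 8 stand for single animals.

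Mast cells arise from progenitors of the bone marrow and mature in tissues, where KIT, the receptor tyrosine kinase for stem cell factor, keeps them alive. Their high-affinity receptor for immunoglobulin E (IgE) has an alpha chain that binds IgE (FCER1A), a beta chain that strengthens the signal and spans the membrane several times (MS4A2), and a signalling gamma chain (FCER1G). When IgE on the receptor is crosslinked, kinases such as LYN and SYK are engaged and the granules are released. The granules hold histamine, made by histidine decarboxylase (HDC), and proteases such as chymase (CMA1) and carboxypeptidase A3 (CPA3). In the heart, mast cells lie along vessels and in the interstitium, and chymase is known for converting angiotensin I to angiotensin II. KIT is also carried by haematopoietic progenitors and melanocytes, and in white pig breeds such as Yorkshire and Landrace it is the locus of the dominant white coat, where the gene is known to be duplicated. The labels give no copy number of KIT.

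The platform annotation pairs the probe sets with Entrez gene 396810 (KIT) and 397166 (MS4A2). The first MS4A2 probe set (Ssc.15768.1.S1_at) is listed by the platform under a RefSeq transcript of that gene. The second (Ssc.30759.1.A1_at) and the KIT probe set (Ssc.16096.2.S1_a_at) are listed under sequences that are not RefSeq transcripts of the genes. Probe sequences were not used here, so the part of the transcript that each probe set reads is not known.

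Several facts about the arrays bear on these genes. The poly-A minus hybridisation controls averaged -1.88 ± 0.32 (SD, n = 11) in 11 arrays, called set A, and -4.57 ± 0.45 (SD, n = 5) in 5 arrays, called set B (MI 7, MI 8, Sham 6, Sham 7 and Sham 8). The labels do not mention this split. MI 7 is labelled female, but its signal for the Y-linked EIF1AY was 9.51, as in the males (9.40 to 9.96) and not as in the other 7 females (3.00 to 3.51). For the actin control, the signal at the 3' end less that at the 5' end averaged 2.39 ± 0.59 in MI and 2.12 ± 0.68 in Sham animals (n = 8 each, exact permutation test, two-sided, p = 0.394), and 2.64 ± 0.29 in set A and 1.42 ± 0.14 in set B. The ventricular myosin light chain MYL2 ranged from 14.56 to 14.68 in MI and from 14.55 to 14.71 in Sham animals, and 9 of 9 measured ventricular markers were above background. Background was set at 4.99, the highest single value of 23 control probe sets with no target in the sample.

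MS4A2, by its first probe set, was higher after infarction, while its second probe set and KIT did not pass the test. The 8 MI animals had 7.56, 7.43, 7.66, 7.14, 7.30, 7.79, 7.36 and 6.25 (MI 1 to MI 8) at the first MS4A2 probe set. The 8 Sham animals had 7.05, 6.85, 6.75, 6.72, 7.06, 6.49, 6.12 and 5.93 (Sham 1 to Sham 8). Thus 7 of the 8 MI animals lay above the highest Sham animal, and MI 8 lay below 6 of the Sham animals. The mean was 7.31 ± 0.47 (SD, n = 8) in MI and 6.62 ± 0.41 in Sham animals. The difference was 0.69 (SE 0.20, limma, adjusted p = 0.0425), or 1.61-fold. Of the 3 marker probe sets 1 passed as higher and 0 as lower in limma (1 at an unadjusted p under 0.05). Of all probe sets 10.5% passed, 5.39% as higher and 5.14% as lower in MI, while an unadjusted p below 0.05 was reached by 23.6%, so 1 of 3 is too small a count to set the markers apart. In whole ventricle, more cells of a type and more RNA per cell cannot be told apart.

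**Figure D1:**
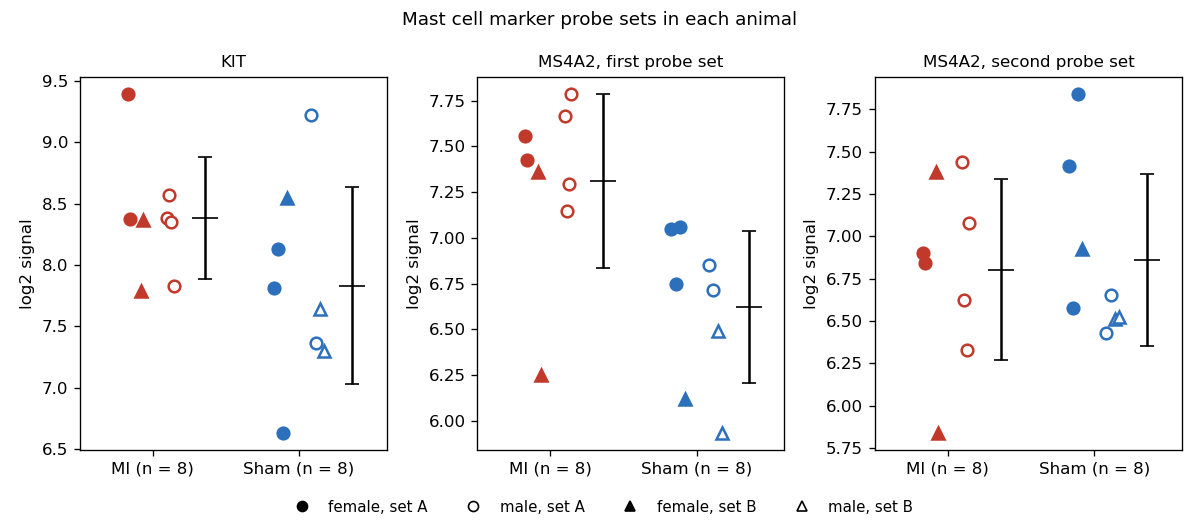
Log2 signal of each animal (1 point) for KIT and for the first and the second MS4A2 probe set, in MI and Sham animals; bars give the mean ± SD (n = 8), filled points are animals labelled female, open points male, circles arrays of set A and triangles arrays of set B. At the first MS4A2 probe set 7 of 8 MI animals lie above all Sham animals, and the groups overlap at the other probe sets.

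The first MS4A2 probe set was lower in the arrays of set B. With group, sex and set in 1 fit, set B stood 0.68 below set A (set B minus set A, -0.68, SE 0.18, limma, adjusted p = 0.0146). This passed for 17.6% of all probe sets, and KIT (-0.31, adjusted p = 0.635) and the second MS4A2 probe set (-0.20, 0.67) did not pass. MI 7, MI 8 and Sham 6 to Sham 8 belong to set B. Set A held 6 MI animals with 7.14 to 7.79 and 5 Sham animals with 6.72 to 7.06, so the groups did not overlap there, which held with MI above Sham for 4.32% of all probe sets. The difference in set A was 0.61 (SE 0.13, limma, adjusted p = 0.0165), where 9.68% of probe sets passed and 4.58% passed as higher. In set B the 2 MI animals had 7.36 and 6.25 and the 3 Sham animals 6.49, 6.12 and 5.93, a difference of 0.62 (SE 0.33, limma with group alone, adjusted p = 0.55). With the set as a block the difference was 0.60 (SE 0.15, limma, adjusted p = 0.0145), where 12.9% passed and 6.57% passed as higher. With the block the call also held without any single animal (adjusted p up to 0.0368), in runs chosen after seeing the data. It held without MI 7 too (0.48, adjusted p = 0.0283), a run that was planned. Without the block it was lost when MI 1, MI 2, MI 3, MI 5, MI 6, MI 7, Sham 3, Sham 4, Sham 6, Sham 7 or Sham 8 was left out, and the adjusted p then reached 0.0856. Within set A the correlation of this probe set with the 3' to 5' difference of actin was r = 0.15 (n = 11, permutation p = 0.65) and rho = 0.0091 (permutation p = 0.988). Without the 2 arrays farthest from the median r was 0.089, and the adjusted p over the 3 probe sets were 0.951 and 0.988.

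The second MS4A2 probe set did not follow the first between the groups. Its signals were 6.90, 6.84, 7.44, 6.62, 6.33, 7.08, 7.38 and 5.84 in MI 1 to MI 8. In Sham 1 to Sham 8 they were 7.42, 6.43, 6.58, 6.65, 7.84, 6.51, 6.93 and 6.53. The groups overlapped throughout, with the highest value in Sham 5 and the lowest in MI 8. The mean was 6.80 ± 0.54 (SD, n = 8) in MI and 6.86 ± 0.51 in Sham animals. The difference was -0.06 (95% confidence interval -0.53 to 0.42, limma, adjusted p = 0.918), with -0.04 over the arrays of set A and -0.05 over those of set B. The mean of both probe sets gave MS4A2 a difference of 0.32 (limma, adjusted p = 0.429).

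The disagreement between the probe sets was itself larger than the spread between animals. The first minus the second was 0.51 ± 0.30 (SD, n = 8) in MI animals, from -0.02 in MI 7 to 0.97 in MI 5. It was -0.24 ± 0.46 in Sham animals, from -0.81 in Sham 7 to 0.42 in Sham 2. These within-array differences differed by 0.75 between the groups (exact permutation test, two-sided, n = 8 each, p = 0.00249), a test chosen after the values were seen. The same comparison gave 0.71 in set A (6 and 5 animals, exact p = 0.00866) and 0.67 in set B (2 and 3 animals, exact p = 0.2, the smallest possible there). A ratio within an array shows that the probe sets changed unequally, and not which of them follows the transcript.

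Within the groups the MS4A2 probe sets tended to be high in the same animals. In MI animals their correlation was r = 0.83 (n = 8, exact permutation p = 0.0223) and rho = 0.79 (exact p = 0.0279). It was r = 0.63 without the 2 animals farthest from the median at the first probe set, and 0.79 within the 6 animals of set A. In Sham animals it was r = 0.51 (n = 8, exact permutation p = 0.151) and rho = 0.43 (exact p = 0.299), and r = 0.80 without the 2 farthest animals. After adjustment over the 6 correlations computed between the 3 probe sets, 0 passed, with the lowest adjusted p at 0.134 for r and 0.168 for rho.

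**Figure D2:**
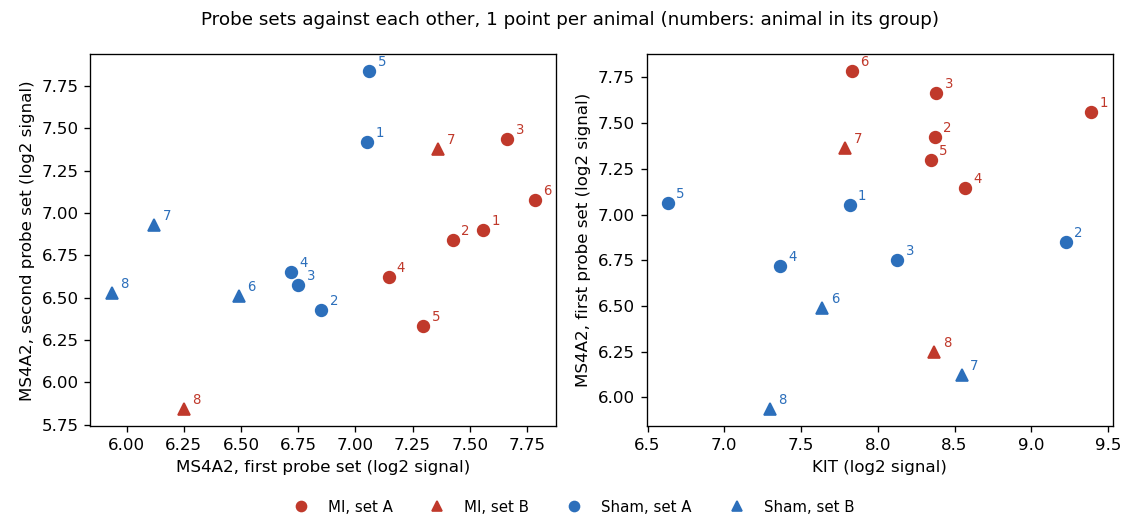
Log2 signals of the second against the first MS4A2 probe set (left) and of the first MS4A2 probe set against KIT (right), 1 point per animal with its number, MI in red and Sham in blue, circles for set A and triangles for set B. In the left panel most MI animals lie to the right of Sham animals with a like signal at the second probe set; in the right panel KIT and MS4A2 have correlations near 0 (r = -0.04 in MI and -0.08 in Sham animals).

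KIT, the stem cell factor receptor, varied widely between animals. It was 9.39, 8.37, 8.38, 8.57, 8.35, 7.83, 7.79 and 8.37 in MI 1 to MI 8. In Sham 1 to Sham 8 it was 7.82, 9.22, 8.13, 7.36, 6.63, 7.64, 8.55 and 7.30. Sham 2 was the second highest of all 16 animals, 4 Sham animals lay below the lowest MI animal, and 1 MI animal lay above the highest Sham animal. The mean was 8.38 ± 0.49 (SD, n = 8) in MI and 7.83 ± 0.80 in Sham animals. The difference of 0.55 (95% confidence interval -0.13 to 1.23, limma, adjusted p = 0.328) was within the spread between animals. It was 0.67 in set A (adjusted p = 0.295), 0.25 in set B (0.851) and 0.51 with the set as a block (0.348). Leaving out 1 animal moved it between 0.36 (without Sham 5) and 0.77 (without Sham 2, limma, adjusted p = 0.0888), and the adjusted p did not fall under 0.05 in any of the 43 alternatives run.

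The spread of all 3 probe sets was wide for this array. After group and sex were taken out, the SD was 0.715 for KIT, against a median of 0.193 over all probe sets, and 1.08% of probe sets varied more. It was 0.451 for the first and 0.493 for the second MS4A2 probe set, with 6.01% and 4.39% of probe sets varying more. The spike-in set was not taken out here. Within set A the SD of the first MS4A2 probe set was 0.24 in MI (n = 6) and 0.16 in Sham animals (n = 5). The correlation of KIT with the first MS4A2 probe set was r = -0.04 (n = 8, exact permutation p = 0.832) and rho = 0 (exact p = 1) in MI animals. In Sham animals it was r = -0.08 (n = 8, exact permutation p = 0.832) and rho = -0.02 (exact p = 0.977). All were adjusted to at least 0.832 over the 6. Without the 2 animals farthest from the median of KIT, r was -0.44 in MI animals and -0.00093 in Sham animals. With the second MS4A2 probe set KIT had r = -0.22 in MI and -0.52 in Sham animals (n = 8 each, exact permutation p = 0.593 and 0.184), and the latter turned to 0.33 without the 2 farthest animals.

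**Figure D3:**
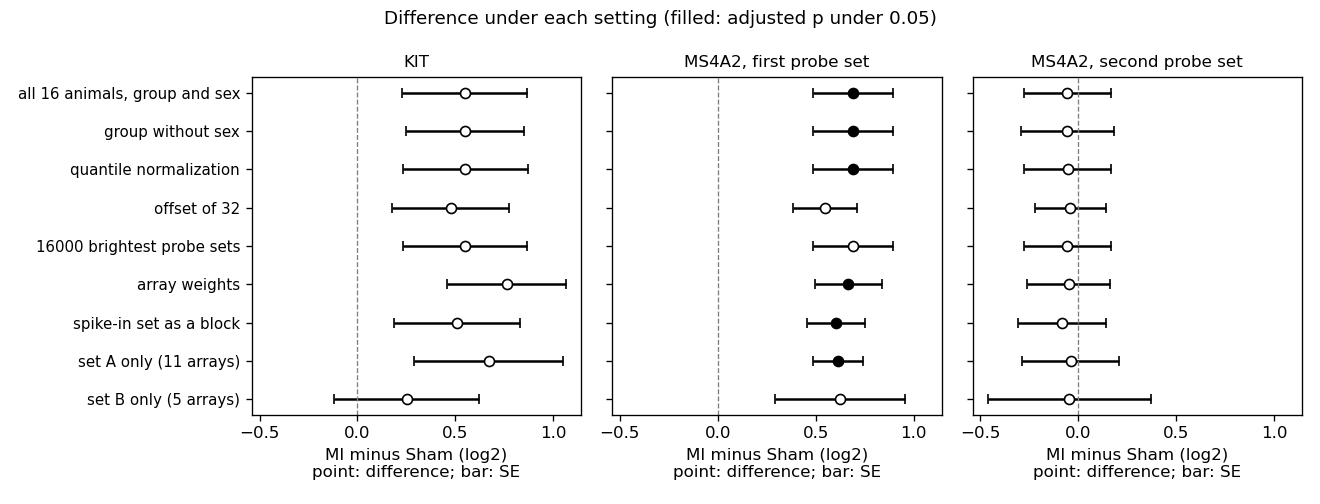
Difference MI minus Sham on the log2 scale (point) with 1 SE to each side (bar) for KIT and for the first and the second MS4A2 probe set, under the fit of all animals and 8 other settings; filled points have an adjusted p under 0.05. The first MS4A2 probe set stays between 0.55 and 0.69 and KIT between 0.25 and 0.76, and the second MS4A2 probe set stays near 0.

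Sex was examined next, with females and males as labelled. MI 7, with its male level of EIF1AY, thus counts as female. Both MI arrays of set B, MI 7 and MI 8, are labelled female, so sex and set are partly confounded among MI animals. The means of KIT ran in the order MI females 8.48 ± 0.67, MI males 8.28 ± 0.32, Sham males 7.88 ± 0.91 and Sham females 7.78 ± 0.82 (SD, n = 4 each). At the first MS4A2 probe set the order was MI males 7.47 ± 0.30, MI females 7.15 ± 0.60, Sham females 6.75 ± 0.44 and Sham males 6.50 ± 0.40. At the second it was Sham females 7.19 ± 0.55, MI males 6.87 ± 0.49, MI females 6.74 ± 0.65 and Sham males 6.53 ± 0.09. No neighbours in any of these orders differed by more than the larger of their SDs. MS4A2 differed at the first probe set by 0.97 in males (SE 0.29, limma, adjusted p = 0.078) and by 0.40 in females (SE 0.29, adjusted p = 0.555), and 0 of the 3 probe sets passed in either sex by limma (1 at an unadjusted p under 0.05 in males, 0 in females; 3.4% and 2.85% of all probe sets passed). The difference between the sexes in this change was -0.57 (female minus male, SE 0.41, limma, adjusted p = 0.801) for it, 0.30 for KIT (0.932) and -0.79 for the second MS4A2 probe set (0.794). By limma 0 of the 3 passed this interaction (0 at an unadjusted p under 0.05; 0% of all probe sets passed). Female minus male over both groups was 0.05 for KIT, -0.04 for the first and 0.27 for the second MS4A2 probe set, and 0 of the 3 passed in limma (0 with an unadjusted p below 0.05; 0.0583% of all probe sets passed).

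The partners of these receptors were followed with 1 probe set per gene. KITLG, FCER1G, LYN, GATA2 and MITF are given for their roles, outside the naming rule. Over all genes, 7.63% of the 6765 genes passed, with 18.1% at an unadjusted p under 0.05 and a median difference of 0.0048. KITLG, the stem cell factor that binds KIT, had 5.96 ± 0.40 (SD, n = 8) in MI and 5.99 ± 0.26 in Sham animals, a difference of -0.02 (95% confidence interval -0.35 to 0.30, limma, adjusted p = 0.95). Of 7 measured genes of stem cell factor and KIT signalling 0 passed in limma (1 with an unadjusted p below 0.05, the adaptor SHC1 at -0.13, adjusted p = 0.197), with a median difference of -0.02. STAT3, a transcription factor downstream of many receptors, differed by -0.15 (adjusted p = 0.461). The kinase MAPK3, outside the naming rule, passed as higher in set A alone (0.26, adjusted p = 0.0472), against 0.13 over all animals (adjusted p = 0.666).

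IgE receptor signalling gave 2 passing genes of 11 measured, both higher in MI, with 3 at an unadjusted p under 0.05 and a median difference of 0.06. These counts stand beside the 7.63% and 18.1% over all genes. The third gene was ITPR1, a calcium release channel, at 0.17 (limma, adjusted p = 0.0769). LAT, the membrane adaptor that assembles the signal in mast cells and T cells, rose by 0.32 (SE 0.09, limma, adjusted p = 0.0323). It ranged from 5.70 to 6.23 in MI and from 5.36 to 5.89 in Sham animals, and its difference was 0.29 in set A (adjusted p = 0.0231). BTK, the Tec-family kinase of mast cells and B cells, rose by 0.25 (SE 0.07, limma, adjusted p = 0.0467), with both group means below background. It did not pass in set A (0.28, adjusted p = 0.0950) and passed with the set as a block (0.23, adjusted p = 0.0477). FCER1G, the gamma chain that MS4A2 works with, was 7.43 ± 0.21 in MI and 7.61 ± 0.15 in Sham animals, a difference of -0.18 (95% confidence interval -0.38 to 0.02, limma, adjusted p = 0.253). LYN, the kinase bound to the beta chain, differed by 0.12 at its brighter probe set (limma, adjusted p = 0.707). The other probe set of LYN, named after its value was seen, rose by 0.55 (SE 0.10, limma, adjusted p = 0.00224). Of the 21 further probe sets of the genes followed here, the second of MS4A2 included, 3 passed as higher (GRB2, LYN and TGFB1) and 1 as lower in MI. Over all probe sets 10.5% passed. The passing probe sets of GRB2 and TGFB1 had Sham means of 4.79 and 4.78, below background. The one that passed as lower was a dim probe set of VEGFA with means of 4.15 in MI and 4.54 in Sham animals, below background (-0.39, adjusted p = 0.00247), and the other 2 further VEGFA probe sets did not pass (-0.09 and -0.11).

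Other mast cell genes did not pass. Of 6 measured genes of the lineage and its granules 0 passed in limma (1 with an unadjusted p below 0.05), with a median difference of 0.08. That gene was VWA5A, which differed by 0.59 (SE 0.21, limma, adjusted p = 0.0835). It ran from 4.56 to 5.98 in MI and from 4.12 to 5.68 in Sham animals, with a Sham mean (4.69) below background. In set A it passed (0.93, adjusted p = 0.0123). LAMP1, a membrane protein of lysosomes and secretory granules, differed by 0.10 (adjusted p = 0.459). GATA2 and MITF, transcription factors that mast cells need, differed by -0.01 and 0.03 (adjusted p = 0.971 and 0.92). Of the 18 genes of this list 12 were not analysed here, among them the tryptases.

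**Figure D4:**
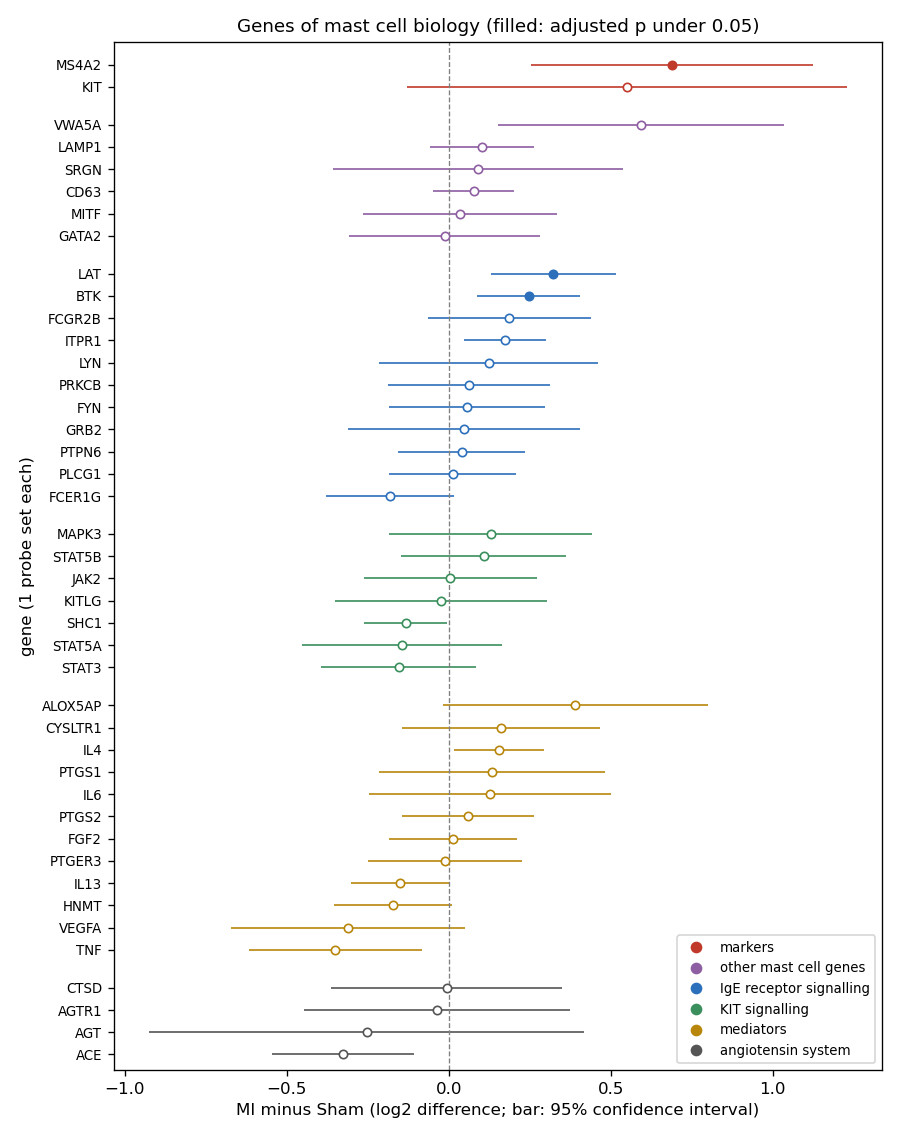
Difference MI minus Sham on the log2 scale with its 95% confidence interval (bar) for the measured genes of 6 lists around mast cells, 1 probe set per gene; filled points have an adjusted p under 0.05. MS4A2, LAT and BTK pass, KIT has a wide interval that spans 0, and KITLG and FCER1G lie near or below 0.

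Mast cell mediators and the angiotensin system, in which chymase works, gave 0 passing genes by limma. Of 12 measured mediators and their enzymes and receptors 2 had an unadjusted p under 0.05, TNF at -0.35 (adjusted p = 0.0925) and IL4 at 0.16 (0.152), and the median difference was 0.04. IL4 was below background in both groups. In set A alone 2 mediators passed that did not pass over all animals, VEGFA, a growth factor of vessels, as lower (-0.65, adjusted p = 0.0162) and IL6, with both group means below background, as higher (0.40, adjusted p = 0.0180). Both are outside the naming rule and are given for their calls in set A. Of 8 measured factors that guide mast cell growth and homing 0 passed in limma (2 with an unadjusted p below 0.05, TGFB1 at -0.44 and IL4), with a median of -0.04. Another, dimmer probe set of TGFB1 rose by 0.36 (adjusted p = 0.0041), with means of 5.14 in MI and 4.78 in Sham animals, the latter below background. The TGFB1 probe set used here, with means of 7.20 and 7.64, passed as lower once set A and set B were a block (-0.36, adjusted p = 0.0232) and in set A (-0.32, adjusted p = 0.0471). Of 4 measured genes of the angiotensin system ACE, the converting enzyme that acts beside chymase, differed by -0.33 (adjusted p = 0.0549) and passed as lower with that block (-0.30, adjusted p = 0.0485). AGT, the precursor of the angiotensins, differed by -0.25 (adjusted p = 0.698), and the median of the list was -0.14, with 0 passing and 1 at an unadjusted p under 0.05.

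Other cells that carry these markers, or the passing partners, were checked by their own lists. Of 9 basophil and eosinophil markers CCR3 alone was measured, below background in both groups (0.09, limma, adjusted p = 0.552). Of 10 dendritic cell markers 2 were measured and 0 passed in limma (0 with an unadjusted p below 0.05; CCR7 at 0.14 and CD83 at -0.22), with a summed log2 level from 6.61 to 7.44 in MI and from 6.40 to 9.68 in Sham animals. Of 4 measured stem and progenitor markers 0 passed in limma (0 with an unadjusted p below 0.05; PROM1 at 0.17 and ABCG2 at 0.11), and their summed level ran from 9.34 to 10.18 in MI and from 9.31 to 9.98 in Sham animals. Of 4 melanocyte and neural crest markers EDNRB rose by 0.43 (limma, adjusted p = 0.0144) and TYR fell by 0.43 (adjusted p = 0.000392), TYR and TYRP1 being below background in both groups. EDNRB did not pass in set A (adjusted p = 0.104) and passed with the set as a block (0.42, limma, adjusted p = 0.0154).

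Of 9 measured T and NK cell markers CD3D (0.43), CD8B (0.30), CD247 (0.34) and IL7R (0.32) rose and CD4 fell by limma, CD4 and IL7R being below background. CD3E (-0.26) and CD8A (-0.10), both above background, had lower means in MI without passing, and CD3G (0.13) and PRF1 (0.07) higher ones without passing. The summed level of this list ran from 8.51 to 9.20 in MI and from 8.59 to 9.29 in Sham animals. Its counts, and those of the lists below, stand beside the 7.63% of all genes that passed. CD8B and CD247 did not pass in set A (adjusted p = 0.131 and 0.119) and passed with the set as a block (limma, adjusted p = 0.0221 and 0.0238). Of 7 macrophage and monocyte markers CD14 rose (0.76, adjusted p = 0.00314), and the summed level ran from 10.76 to 11.75 in MI and from 10.97 to 11.32 in Sham animals. Of 4 neutrophil markers MMP9 passed as higher (0.54, adjusted p = 0.000569), with the highest Sham animal at 4.99 and the Sham mean (4.76) below background, so the size of this difference rests on a dim signal. The other neutrophil markers had both group means below background and did not pass (S100A8 at -0.21, S100A9 at -0.54 and ELANE at 0.24; adjusted p = 0.1002, 0.408 and 0.131). Of 2 B and plasma cell markers 0 passed (CD79B at -0.25 with an unadjusted p under 0.05, JCHAIN at 0.15). The erythroid markers HBM and AHSP rose, 2 of 4, the Sham mean of AHSP (4.85) being below background. ALAS2 (0.59) and HBB (-0.06) did not pass (limma, adjusted p = 0.22 and 0.817). Among 6 adipocyte genes there were 2 that rose (PPARG, ADIPOQ) and 1 that fell (RETN). ADIPOQ and RETN did not pass in set A (adjusted p = 0.241 and 0.0504) and passed with the set as a block (limma, adjusted p = 0.0355 and 0.0144). Both group means of ADIPOQ (4.83 and 4.39) and the MI mean of RETN (4.74) were below background. Of 8 fibroblast markers 0 passed (limma, 0 with an unadjusted p under 0.05; POSTN at -0.59, VIM at -0.14), and of 8 endothelial markers 0 passed (1, KDR at 0.39; PECAM1 at 0.27). Smooth muscle and pericyte markers gave 0 of 6 (0; CNN1 at 0.41, ACTA2 at -0.14), ventricular markers 0 of 9 (0; ACTC1 at -0.13, TNNT2 at -0.07) and atrial markers 0 of 4 (0; KCNJ3 at -0.32, NPPA at -0.30). In set A alone PECAM1 passed as higher (0.55, adjusted p = 0.0213) and KCNJ3 as lower (-0.61, adjusted p = 0.0238). The part of these cells in the values of MS4A2, LAT and BTK was not tested.

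The genes most like each marker across the 16 animals were ranked by correlation. Among 5924 other genes above background, the pattern of MS4A2 at its first probe set was most like that of CDC5L, a splicing protein (Pearson r = 0.91 over 16 animals, 0.80 over the 11 of set A), PRPF18, also of the splicing machinery (0.88 and 0.69), RWDD3 (0.88 and 0.72), FAM13C (0.87 and 0.81) and HIRIP3 (0.86 and 0.71). For KIT they were EPB41L3, a protein of the membrane skeleton (0.86 and 0.88), LMNB1, a nuclear lamin (0.78 and 0.78), VPS33A, of vesicle transport (0.73 and 0.70), PTTG1, the securin of chromosome separation (0.72 and 0.72), and NNAT (0.71 and 0.72). These correlations describe the 16 arrays, which share their spike-in sets, and carry no test.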

How the data were processed

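Each of the 16 arrays measured total RNA of the left ventricle of 1 pig; per the labels, frozen tissue was extracted with Trizol and a column, and cRNA carrying biotin was hybridised. The deposited values run from 2.87 to 14.9 with a median of 6.23 on each array, a log2 scale by these values. Their normalization and software are not given in the labels. They were used unchanged, and 124 control probe sets were not tested. The precision is limited by the number of arrays.

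Tests used limma 3.58.1 in R 4.3.3 over all 23999 probe sets, with 1 coefficient for each cell of group and sex, two-sided, Benjamini-Hochberg adjustment over all of them and a threshold of 0.05. The 2 spike-in sets were split at the largest gap of poly-A minus hybridisation controls. Exact permutation tests used SciPy 1.17.1. Each gene in a list had its probe set of highest mean; a summed level is log2 of the summed linear signals. On simulated data for MI against Sham over 23999 probe sets, 59 of 100 changes of 0.5 and 100 of 100 changes of 1 were recovered, and 10 unchanged probe sets passed. The changed probe sets were drawn at random, with independent normal noise and no shift between the spike-in sets. Most probe sets vary less than the 3 marker probe sets, so these shares do not give the recovery for the markers. Named genes were the members, the passing genes of each list or else its genes of lowest p, and the 5 genes most like each marker. Alternatives were another model without sex, the animal number or the spike-in set as a block, each set alone, other scalings, an offset of 32, the 16000 brightest probe sets, array weights, a trended variance, MI 7 left out and each animal left out. Leaving out animals together with the spike-in block was chosen after seeing the data. The members and lists were chosen with earlier results of these data known. Promoter motifs were not analysed here.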

Additional observations from a re-analysis of the deposited data

Results flagged for a closer look

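At the first MS4A2 probe set MI 8 stood apart from the other MI animals: its log2 signal was 6.25, and the next was 7.14, a gap of 0.583 of the range of the 8 MI animals against a critical value of 0.526. It stood apart in the same way among the 4 MI females (6.25, next value 7.36, gap 0.85 against 0.829). These were 2 of 18 groups of values checked, the MI females being part of the MI animals, and about 5% of such groups are flagged by chance. MI 8 belongs to set B, where this probe set was lower, and it was also the lowest MI animal at the second MS4A2 probe set (5.84). Without MI 8 the difference at the first probe set was 0.84 (limma, adjusted p = 0.00548).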

How the results depend on the processing

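Between MI and Sham animals 2527 probe sets passed. The count was 654 among the 16000 brightest probe sets and 1 in set B alone, and within 1.5 times of 2527 in 26 other alternatives; without 1 animal it ran from 2045 to 2537. The count of passing marker probe sets, 1, became 0 with the 16000 brightest probe sets, with the offset of 32 and in set B, and ran from 0 to 1 without 1 animal. The first MS4A2 probe set lost its call with the 16000 brightest probe sets (0.69, adjusted p = 0.0734) and the offset (0.55, 0.0524). It also lost the call in set B (0.62, 0.55) and as the mean of both probe sets (0.32, 0.429). It passed in 29 of 44 alternatives (adjusted p 0.00277 to 0.55). These 44 include the runs without 1 animal with the spike-in block, of which 16 of 16 passed. All of those runs but the one without MI 7 were chosen after seeing the data. Without the block 5 of the 16 runs without 1 animal passed. Without 1 animal the difference at this probe set ran from 0.58 to 0.84, and with the spike-in block as well from 0.48 to 0.73. The second MS4A2 probe set changed sign in 6 of 43 alternatives, without MI 5 (0.03), MI 8 (0.094) and Sham 5 (0.05), and with the spike-in block as well (0.0083, 0.10 and 0.031). Without 1 animal it ran from -0.16 to 0.09, with the block from -0.25 to 0.10, and it passed in none of the 43. KIT kept its direction and side of the threshold in all 43 alternatives. With fewer animals or probe sets the test itself changes; otherwise the cause was not tested. Whether the animal numbers mark pairs is not known. Of the same-number pairs 4 of 8 correlated above 0.1 (-0.07 to 0.46), against means of -0.07 to 0.03 with the other numbers. These were the pairs numbered 1, 4, 7 and 8. Pairs 7 and 8 lie wholly in set B, and the spike-in set was not taken out of these correlations. Among the MI animals 2 of 8 were most like their own number. With the number as a replicate block 2395 probe sets passed and the first MS4A2 probe set differed by 0.69 (adjusted p = 0.0211), and this block changed none of the marker calls. The correlation of KIT with the first MS4A2 probe set was near 0 (r = -0.04 in MI and -0.08 in Sham animals), so its sign carries no weight. It was -0.24 within set A for MI animals. Without the 2 farthest animals it was -0.44 in MI and -0.00093 in Sham animals. Set A held 5 Sham animals, too few for a value.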
